A study of Rattus norvegicus with 10 samples.

Results

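The arrays described here are the 2 pools of retinal RNA numbered 3, called pools 3 below, of 10 pools in all. One is from F344 rats in cyclic hyperoxia and the other from SD rats in room air. Each was set against pools 1 and 2 of its own group, 4 arrays, which share its strain and exposure. The rule takes the replicate number in the titles. A deviation below is the log2 level of pool 3 minus the mean of pools 1 and 2 of its group, and the average is the mean of both deviations.

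The study compared whole retinas of F344 and SD rats at postnatal day 3, early in a model of retinopathy of prematurity in which newborn rodents breathe cycles of high oxygen. Hyperoxia litters entered the chamber with their mothers within 12 hours of birth and alternated between 80% and 21% oxygen every 24 hours, and age-matched litters stayed in room air. There were 3 pools of F344 hyperoxia, 2 of F344 room air, 2 of SD hyperoxia and 3 of SD room air, and no genotype besides the strain is given. Each pool held RNA of 3 rats from 2 litters, so values of single rats are averaged within a pool. The first 8 samples were followed, on the basis of their principal components, by 1 more of F344 hyperoxia and 1 more of SD room air, according to the design text. That these are the pools numbered 3 is an inference from their number. The 2 pools 3 differ from each other in strain and in exposure, and each is a single array. No batch, hour of collection or dissection note for them is given in the sources used here, so what they share besides the number was not tested.

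The rat retina is still being built at this age. Progenitors divide and leave the cell cycle, many rods are being born, ganglion, amacrine, horizontal and cone cells are already present, and most bipolar cells and Müller glia are still to come. Genes of DNA replication and mitosis therefore mark the dividing progenitors, and genes of phototransduction mark photoreceptors that have begun to mature. Lens, pigment epithelium, ciliary body and connective tissue lie against the retina and can come away with it in a dissection. In whole tissue, fewer cells of a type and less RNA per cell cannot be told apart. Retinal markers were read in all 10 arrays: Crx, a photoreceptor transcription factor, lay between 10.7 and 11.2, and Rax, an eye field factor of progenitors, between 8.7 and 9.3.

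Both pools 3 departed from their groups by more than pools 1 and 2 departed from each other. The root mean square difference over 14324 genes, scaled to 1 array, was 0.134 between pools 1 and 2 in F344 hyperoxia, 0.122 in F344 room air, 0.113 in SD hyperoxia and 0.144 in SD room air. It was 0.214 for F344 pool 3 and 0.225 for SD pool 3. Between pools 1 and 2, 264 genes differed by at least 0.5 on the log2 scale in F344 hyperoxia, 199 in F344 room air, 125 in SD hyperoxia and 383 in SD room air. F344 pool 3 was that far from the mean of its group's other pools for 1035 genes (7.23%) and SD pool 3 for 1207 (8.43%).

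**Figure D1:**
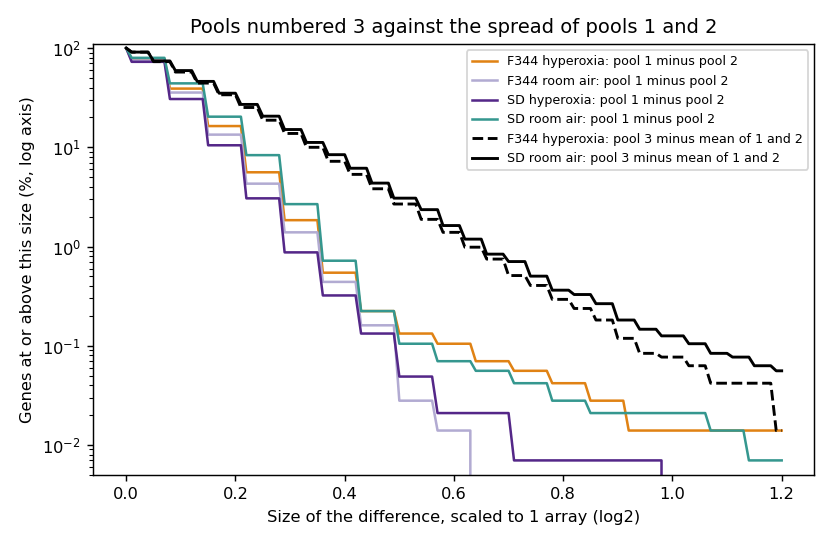
Share of the 14324 genes (%, log axis) whose difference reaches a given size (log2, scaled to 1 array), with coloured lines for pool 1 minus pool 2 in each of the 4 groups and black lines for pools 3 minus the mean of pools 1 and 2. Both black lines lie above the 4 coloured lines from about 0.2 on, with root mean square differences of 0.214 and 0.225 against 0.113 to 0.144.

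The average deviation was tested with limma, with a mean per group and 1 term for pools 3, so that the spread came from the pairs of pools 1 and 2 and from the difference between both deviations. At an adjusted p under 0.05, 1058 genes were higher in pools 3 (7.39% of the 14324) and 1251 were lower (8.73%). The median higher gene stood at 0.475 and the median lower gene at -0.40, and the median over all genes was 0 in both pools. Only 24 of the higher genes and 3 of the lower ones reached a 2-fold difference. Of the passing genes, 1053 higher and 1248 lower ones lay outside both other pools of the group in each pool 3. Of all genes, 2373 (16.6%) lay above and 2559 (17.9%) below both other pools in each of the 2 groups, whether or not they passed. In both pools 3, 1305 genes were above and 1483 below all 8 other arrays, and 891 and 1036 of these passed. With each array centred on its median, a scaling that moves array levels by -0.055 to 0.045, 639 genes were higher and 1743 lower, so the higher share of the calls was 26.8% in place of 45.8%. Without F344 hyperoxia pool 2, 741 were higher and 732 lower. With only the 6 arrays of the 2 groups, 526 were higher and 510 lower.

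The deviations of the 2 pools, which share no array, ran alike across genes. Pearson's r was 0.657 and Spearman's rho 0.586 over the 14324 genes, which are not independent of each other, and all of them share a common array type and processing. Of 11908 genes with both deviations other than 0, 8574 had the same sign (72.0%, 95% binomial interval 71.2 to 72.8, counting error only). Among the 8245 genes of the brighter probe sets r was 0.757, and among the 6079 dimmer ones it was 0.329. In room air F344 and hyperoxia SD, which have no pool 3, pool 1 minus pool 2 correlated with the average deviation at 0.0145 and 0.0205.

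**Figure D2:**
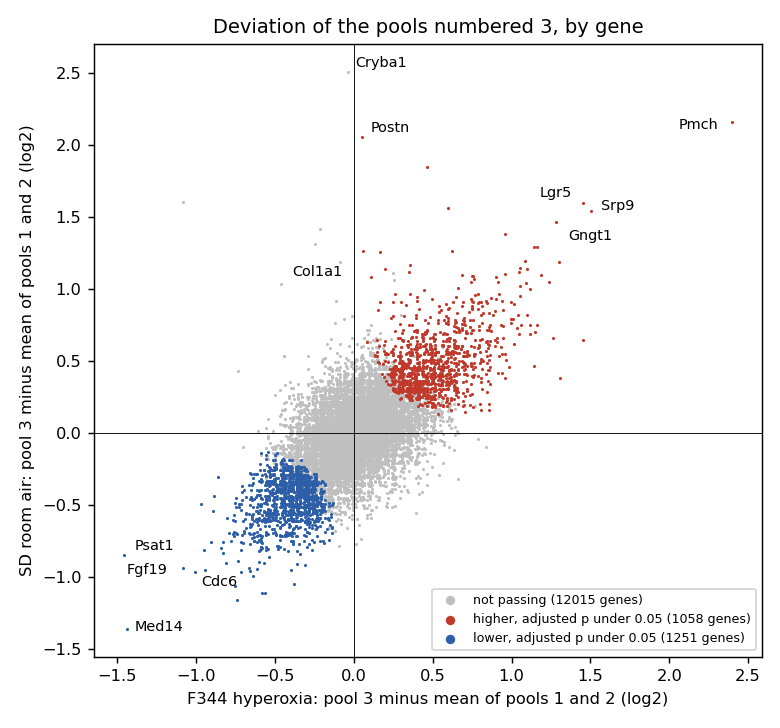
Each point is a gene, with the deviation of F344 hyperoxia pool 3 on the x axis and of SD room-air pool 3 on the y axis (log2, points spread by up to 0.02 so that rounded values do not cover each other), in red where the average was higher and in blue where it was lower at an adjusted p under 0.05. The cloud runs along the diagonal (r = 0.657), Pmch lies farthest along it, and Cryba1, Postn and Col1a1 lie high on the y axis and near or below 0 on the x axis.

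Taken singly, each pool 3 has no replicate, and its deviation was set against the spread between pools 1 and 2 of the 4 groups. In the F344 pool 139 genes were higher (0.97%) and 63 lower (0.44%), and in the SD pool 191 were higher (1.33%) and 211 lower (1.47%). Both pools called 74 genes higher, 53.2% of the F344 calls and 38.7% of the SD calls, and 42 genes lower, 66.7% and 19.9%. Of the 139 genes called higher in the F344 pool 137 also had a positive deviation in the SD pool, and all 63 lower ones had a negative deviation there. These single-pool counts rest on 4 residual degrees of freedom and fell to 0 or 1 when any 1 of the other 8 arrays was left out. No gene passed the test of the difference between the deviations by limma (0 of 14324, smallest adjusted p 0.958), and 577 (4.03%) had an unadjusted p under 0.05.

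Pmch, which encodes the precursor of the hypothalamic neuropeptide melanin-concentrating hormone, had the largest deviation of all passing genes. Its log2 level was 5.6, 5.6 and 8.0 in F344 hyperoxia pools 1 to 3 and 4.8, 4.9 and 7.0 in SD room-air pools 1 to 3, against 5.3 and 5.4 in F344 room air and 5.0 and 5.1 in SD hyperoxia. Both pools 3 thus stood above every other array. The average was 2.28 (SE 0.094, 4.84-fold, adjusted p = 1.02e-07).

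The 12 largest rises were taken from passing genes with each pool 3 above both other pools of its group. A rise in both strains was therefore part of the choice. Lgr5, a receptor for R-spondins in Wnt signalling, lay at 5.7, 5.8 and 7.2 in F344 hyperoxia and at 5.1, 5.5 and 6.9 in SD room air, with 5.6 and 6.1 in F344 room air and 5.7 in both SD hyperoxia pools (average 1.53, SE 0.139, adjusted p = 4.78e-05). Srp9, a subunit of the signal recognition particle, was at 8.0, 7.8 and 9.4 in F344 hyperoxia and at 7.8, 7.9 and 9.4 in SD room air (average 1.53, SE 0.106, adjusted p = 1.29e-05). For both genes pools 3 did not overlap any of the other 8 arrays. Pcp4, a calmodulin regulator of neurons, averaged 1.23, the histone gene H2ac21 1.25, the Polycomb partner Rybp 1.15 and the syntaxin gene Stx19 1.18.

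The largest falls, chosen in the same way, were spread over several functions. Med14, a scaffold subunit of the Mediator complex, lay at 8.8, 9.1 and 7.5 in F344 hyperoxia and at 8.9, 8.4 and 7.3 in SD room air, with 8.8 to 9.0 in the other 4 arrays (fell by 1.4, SE 0.135, adjusted p = 7.1e-05). Psat1, an enzyme of serine synthesis, was at 8.7, 9.2 and 7.5 and at 8.5, 8.6 and 7.7 in the same groups (fell by 1.15, SE 0.169, adjusted p = 9.63e-04). Med14 and Psat1 were lower in both pools 3 than in all other arrays. Amd1, an enzyme of polyamine synthesis, and Chek1, a checkpoint kinase, both fell by 0.95, the nucleoside transporter gene Slc28a2 by 0.90, and Ankrd49, the phosphatase subunit gene Ppp1r15b and the olfactory receptor gene Or2ak5 by 0.85. Or2ak5 did not hold in every fit: its adjusted p was above 0.05 without F344 hyperoxia pool 2.

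**Figure D3:**
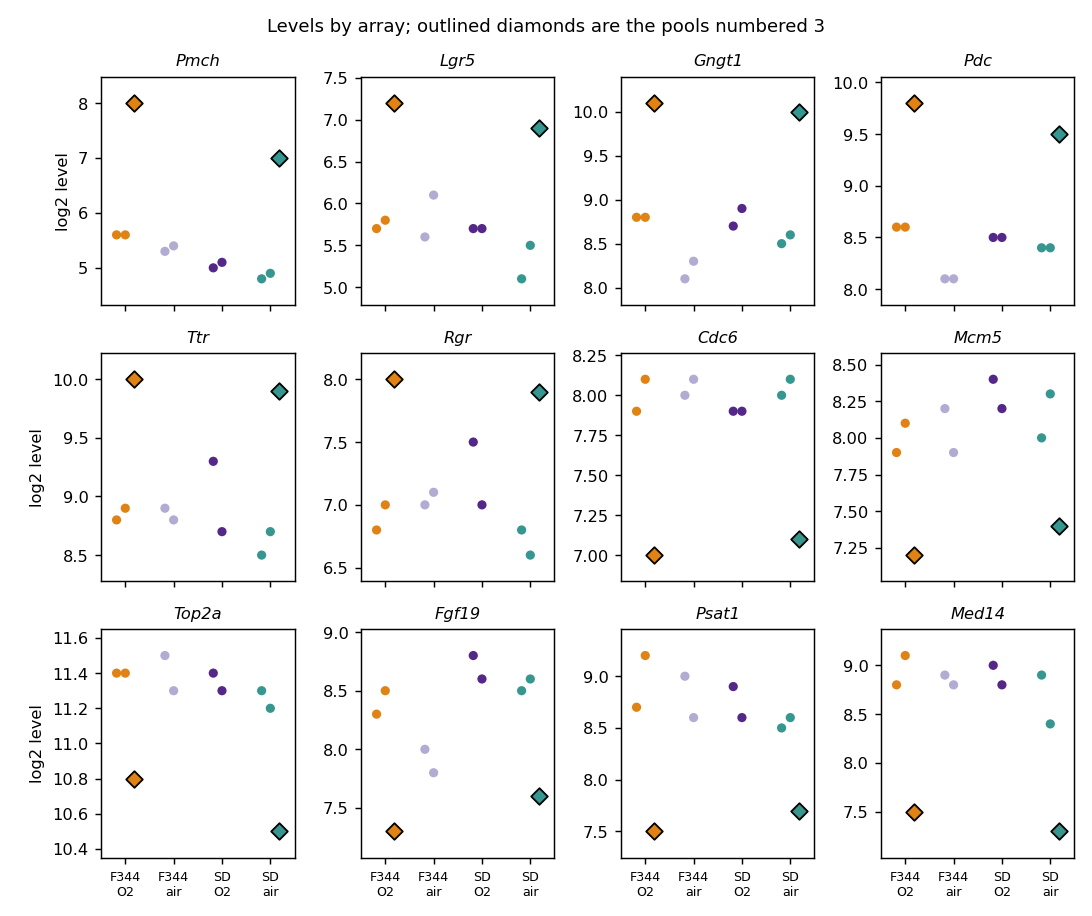
Log2 level of 12 genes in all 10 arrays by group, with hyperoxia written O2, circles for pools 1 and 2 and outlined diamonds for pools 3 of F344 hyperoxia and SD room air; the y axes differ between panels and do not start at 0. Pmch, Lgr5, Gngt1, Pdc, Ttr and Rgr are above, and Cdc6, Mcm5, Top2a, Fgf19, Psat1 and Med14 below, all other arrays in both pools 3.

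Many genes of DNA replication and mitosis were lower by the average. Of 41 measured replication genes 20 were lower and 2 higher (48.8% lower, against 8.73% of all genes), and of 39 mitosis genes 24 were lower and 1 higher (61.5% lower). The median deviation of the replication list was -0.25 in the F344 pool and -0.35 in the SD pool, and that of the mitosis list -0.25 and -0.50, against 0 over all genes. In each group, 26 of the 41 and 29 of the 39 lay below both other pools, against 17.9% of all genes. The lower count of the mitosis list was 14 without F344 hyperoxia pool 2 and 15 without air-exposed SD pool 1 or 2. With 1 of these pools alone, it was 8 in the SD pool and 1 in the F344 pool, and the replication list had 7 and 1. For each list described here except the fibroblast list, no more members passed in either of these pools alone than by the average.

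Cdc6, which loads the replicative helicase at origins, was the lowest of the replication genes. It lay at 7.9, 8.1 and 7.0 in F344 hyperoxia and at 8.0, 8.1 and 7.1 in SD room air, with 8.0 and 8.1 in F344 room air and 7.9 in both SD hyperoxia pools. It fell by 0.98 (SE 0.093, 1.97-fold, adjusted p = 6.19e-05), and both pools 3 were below the other 8 arrays. Mcm5, a subunit of that helicase, was at 7.9, 8.1 and 7.2 and at 8.0, 8.3 and 7.4 in the same groups (fell by 0.78, SE 0.120). Mcm10 and Pola1, the catalytic subunit of polymerase alpha, fell by 0.68 each, and Exo1, a repair exonuclease that is not on the list, by 0.83. The 2 members that were higher were Tipin, a fork protection factor, at 0.50 and Dut, which hydrolyses dUTP, at 0.30. That count was 0 by limma without F344 hyperoxia pool 1 or 2, and 1 without either pool of hyperoxic SD or air-exposed SD pool 1 or 2.

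Among mitosis genes, Top2a, the topoisomerase of dividing cells, lay at 11.4, 11.4 and 10.8 in F344 hyperoxia and at 11.3, 11.2 and 10.5 in SD room air (fell by 0.68, SE 0.095, adjusted p = 7.44e-04). Ccnb1, a cyclin of mitotic entry, was at 9.7, 9.9 and 9.2 and at 9.7, 9.6 and 8.9 (fell by 0.68, SE 0.101). For Top2a and Ccnb1 the other 4 arrays lay between 11.3 and 11.5 and between 9.5 and 9.8, above both pools 3. The spindle kinesin Kif15 and the cytokinesis regulator Racgap1 both fell by 0.70. Mad2l1, a spindle checkpoint protein, was the exception at 0.45 higher, a call lost without F344 hyperoxia pool 1 or air-exposed SD pool 2. Of 18 replication-dependent histone genes, 2 were higher, H2ac21 at 1.25 and Hist1h4b at 0.70, and 1 was lower, Hist2h3c2 at -0.48. These are 11.1% and 5.56%, near the 7.39% and 8.73% of all genes. The Hist2h3c2 call was lost without F344 hyperoxia pool 1 or 2 or air-exposed SD pool 2. Histone genes are near-identical copies, and which copy a probe set reports was not checked here.

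Promoters of such genes are known to carry an E2F site, a CCAAT box bound by NF-Y, and the cell cycle homology element. The windows below run from 250 bases before to 50 after the start in RefSeq (GRCr8), 300 bases each, and were searched on both strands for CCAAT, for TTTGAA, which is the core of the cell cycle homology element, and for TTTCCCGC or TTTGGCGC, which are E2F sites. Matches of different motifs were allowed to overlap, and none do in the windows printed. A window was in the table for 39 of the members that fell. CCAAT was found in 24 of the 39 (61.5%, against 37.7% of all 27457 windows), TTTGAA in 15 (38.5%, against 18.1%) and an E2F site in 9 (23.1%, against 1.53%). Among the 11823 measured genes with a window the shares were 38.3%, 15.2% and 2.26%. Over all 67 members of both lists with a window the shares were 62.7%, 37.3% and 19.4%, so they describe the lists and not the members that fell. The 3 windows printed were taken by size of fall among the 39, and not for their motifs. They are Mcm5 (chr19:13488563-13488862, plus strand), Kif15 (chr8:131479154-131479453, plus strand) and Ccnb1 (chr2:33655176-33655475, minus strand). Capitals mark every match of the 3 searches, on either strand.
Mcm5: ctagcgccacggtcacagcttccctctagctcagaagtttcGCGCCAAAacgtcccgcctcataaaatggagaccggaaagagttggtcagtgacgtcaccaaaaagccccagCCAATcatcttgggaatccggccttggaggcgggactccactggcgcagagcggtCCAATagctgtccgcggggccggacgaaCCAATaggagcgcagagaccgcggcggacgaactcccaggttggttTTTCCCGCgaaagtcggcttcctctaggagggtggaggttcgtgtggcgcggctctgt
Kif15: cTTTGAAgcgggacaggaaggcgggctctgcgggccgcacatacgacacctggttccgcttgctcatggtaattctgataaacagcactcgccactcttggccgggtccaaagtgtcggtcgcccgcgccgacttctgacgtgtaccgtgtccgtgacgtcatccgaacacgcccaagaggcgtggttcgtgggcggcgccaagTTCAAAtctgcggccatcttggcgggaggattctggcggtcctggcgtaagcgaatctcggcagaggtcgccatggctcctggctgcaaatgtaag
Ccnb1: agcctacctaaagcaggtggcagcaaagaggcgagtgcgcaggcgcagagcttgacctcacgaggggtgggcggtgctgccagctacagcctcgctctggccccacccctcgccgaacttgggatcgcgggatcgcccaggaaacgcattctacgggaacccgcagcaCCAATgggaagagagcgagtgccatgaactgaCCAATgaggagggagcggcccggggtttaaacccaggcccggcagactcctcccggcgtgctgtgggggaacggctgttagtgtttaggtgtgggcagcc
Mcm5 held 3 CCAAT and 2 E2F matches, Kif15 held 2 of TTTGAA, and Ccnb1 held 2 of CCAAT. A match is a stretch of letters and no measured binding site.

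Of 20 measured progenitor genes, 4 were lower and 2 higher (20% and 10%, against 8.73% and 7.39% of all genes, median -0.15). Fgf19, the orthologue of mouse Fgf15 and a growth factor of progenitors, lay at 8.3, 8.5 and 7.3 in F344 hyperoxia and at 8.5, 8.6 and 7.6 in SD room air, with 8.0 and 7.8 in F344 room air and 8.8 and 8.6 in SD hyperoxia (fell by 1.03, SE 0.105, adjusted p = 1.2e-04). Both pools 3 were below all other arrays. The Notch effector Hes5 fell by 0.45, Notch1 by 0.38 and its ligand Dll1 by 0.35. The lower count of the list was 1 without F344 hyperoxia pool 1 or 2, either pool of hyperoxic SD or air-exposed SD pool 2, and 2 without either air-exposed F344 pool. Fabp7, a fatty acid carrier of radial glia, was higher at 0.65 and the transcription factor Zic1 at 0.53. Of 16 neurogenic genes, Hes6 fell by 0.48 and Foxn4, a factor of amacrine and horizontal fate, by 0.40, and Penk, an enkephalin precursor, was higher at 0.35 (12.5% lower and 6.25% higher, near the shares of all genes). The lower count there was 1 without F344 hyperoxia pool 1, either pool of hyperoxic SD or air-exposed SD pool 1 or 2.

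Of 44 measured photoreceptor genes, 13 were higher and 1 lower (29.5% higher, against 7.39% of all genes), with median deviations of 0.15 in the F344 pool and 0.20 in the SD pool. The higher count was 6 in the SD pool alone and 4 in the F344 pool alone, and 9 with median centring. Gngt1, the gamma subunit of rod transducin, lay at 8.8, 8.8 and 10.1 in F344 hyperoxia and at 8.5, 8.6 and 10 in SD room air, with 8.1 and 8.3 in F344 room air and 8.7 and 8.9 in SD hyperoxia (average 1.38, SE 0.099, 2.59-fold, adjusted p = 1.62e-05). Pdc, phosducin, which binds transducin beta-gamma, was at 8.6, 8.6 and 9.8 and at 8.4, 8.4 and 9.5 (average 1.15, SE 0.083, adjusted p = 1.62e-05). In both genes pools 3 exceeded the other arrays by more than any of the other 8 differed among themselves.

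Further members spanned rod and cone genes. Rcvrn, recoverin, a calcium sensor, lay at 9.1, 9.1 and 10.1 in F344 hyperoxia and 9.4, 9.6 and 10.3 in SD room air (average 0.90, SE 0.095), and Cnga1, the rod cyclic nucleotide channel, averaged 0.93. The cone arrestin gene Arr3 averaged 0.75, the cone transducin gamma gene Gngt2 0.65, the rod arrestin gene Sag 0.63, and the phosphodiesterase subunit genes Pde6b and Pde6a 0.43 and 0.35. The single lower member was Gnb1, a G protein beta subunit also used outside photoreceptors, which lay at 11.6, 11.7 and 10.9 and at 11.4, 11.4 and 10.7 (fell by 0.73, adjusted p = 3.36e-04). The photoreceptor factors did not pass: Crx stood at 0.28 (adjusted p = 0.11) and Nrl at 0.15.

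TAATCC, a core bound by the homeodomain factor Crx, was in 7.11% of all windows and in 6.34% of those of measured genes. It was in 13 of the 36 photoreceptor members with a window (36.1%), and in 3 of the 10 members that were higher (30.0%). Gngt1 (chr4:32960695-32960994, plus strand) and Pdc (chr13:64908057-64908356, plus strand) are shown as the members with the largest averages, with matches in capitals.
Gngt1: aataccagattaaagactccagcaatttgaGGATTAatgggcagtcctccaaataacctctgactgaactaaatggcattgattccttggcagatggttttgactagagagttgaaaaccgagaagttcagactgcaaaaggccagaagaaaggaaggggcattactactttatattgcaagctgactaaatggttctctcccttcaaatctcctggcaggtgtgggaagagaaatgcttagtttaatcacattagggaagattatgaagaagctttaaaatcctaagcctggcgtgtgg
Pdc: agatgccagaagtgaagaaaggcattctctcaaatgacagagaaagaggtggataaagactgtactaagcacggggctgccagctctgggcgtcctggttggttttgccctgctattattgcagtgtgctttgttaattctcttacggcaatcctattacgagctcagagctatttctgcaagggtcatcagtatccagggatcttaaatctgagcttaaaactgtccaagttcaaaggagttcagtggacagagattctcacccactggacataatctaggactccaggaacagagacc
Gngt1 held 1 match, on the opposite strand, and Pdc held 0, which says only that these letters are absent from this window.

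Of 26 amacrine genes 7 were higher and 4 lower (26.9% and 15.4%, against 7.39% and 8.73% of all genes, median 0.18), and of 26 ganglion cell genes 5 were higher and 3 lower (19.2% and 11.5%, median 0.05, and -0.03 with median centring). Cartpt, a neuropeptide precursor, lay at 7.6, 7.5 and 8.3 in F344 hyperoxia and at 7.4, 7.6 and 8.3 in SD room air, against 7.5 or 7.6 in the other 4 arrays (average 0.78, SE 0.091, adjusted p = 2.83e-04). Its pools 3 were above all other arrays. Gjd2, the neuronal gap junction subunit, averaged 0.53, Npy, neuropeptide Y, 0.50, and the inhibitory vesicle transporter gene Slc32a1 0.40, while Sox11, a factor of young neurons, fell by 0.55 and Gad1, which makes GABA, by 0.33. Without F344 hyperoxia pool 2 or air-exposed SD pool 1 the amacrine count was 4 higher. The lower count was 2 without F344 hyperoxia pool 2, any F344 room-air or SD hyperoxia pool, or either of SD room-air pools 1 and 2.

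Among ganglion cell genes the neurofilament genes Nefm and Nefl averaged 0.78 and 0.45 and the RNA-binding protein gene Rbpms2 0.50. Nefm lay at 8.4, 8.6 and 9.4 in F344 hyperoxia and at 8.5, 8.6 and 9.2 in SD room air. Slc17a6, the vesicular glutamate transporter of ganglion cells, fell by 0.63 and the nicotinic receptor gene Chrnb3 by 0.55. The higher count was 3 without F344 hyperoxia pool 1 or air-exposed SD pool 1 and 2 without F344 hyperoxia pool 2. Of 17 bipolar genes, Pcp2 was higher at 0.60 and Lhx4 lower at -0.35 (5.88% each). The Lhx4 call was lost without any pool 1 or 2 but F344 hyperoxia pool 1. Of 9 horizontal cell genes Pvalb, which muscle also expresses, was higher at 0.55 (11.1%, against 7.39% of all genes). Of 27 synaptic vesicle genes 5 were higher, Rab3a at 0.58 and Slc17a7, the transporter of photoreceptors and bipolar cells, at 0.50 among them, and 3 were lower (18.5% and 11.1%). That higher count was 3 when any of F344 hyperoxia pool 1, the SD hyperoxia pools or air-exposed SD pools 1 and 2 was left out.

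Among the glial and vascular lists, the Müller glia list had 31.8% of its genes higher and 22.7% lower, against 7.39% and 8.73% of all genes. Of these 22 genes 7 were higher, with Timp3, an inhibitor of metalloproteinases, at 0.73 and Car14, a carbonic anhydrase, at 0.58, and 5 were lower, with the glutamate transporter gene Slc1a3 at -0.53, the filament gene Vim at -0.45 and Rlbp1, a retinoid carrier, at -0.40. The higher count was 2 without F344 hyperoxia pool 1, 3 without F344 hyperoxia pool 2 or air-exposed SD pool 1, and 4 without air-exposed SD pool 2 or either air-exposed F344 pool. Of 16 astrocyte genes Sparcl1 was higher at 0.55 and Vim lower (6.25% each), and of 14 oligodendrocyte genes 0 passed by limma in either direction. Of 31 endothelial genes 5 were higher (16.1%), among them Ramp2, an adrenomedullin receptor partner, at 0.65 and Flt1, a receptor of vascular endothelial growth factor, at 0.35. That count was 2 without F344 hyperoxia pool 2 and 3 without either air-exposed F344 pool or air-exposed SD pool 1 or 2. Of 14 pericyte genes Tagln was higher at 0.75, Rgs5 higher at 0.60 and Notch3 lower at -0.40 (14.3% higher and 7.14% lower). The higher count there was 1 without F344 hyperoxia pool 2 or either air-exposed F344 pool. Of 23 microglial genes 3 were higher (13.0%): Fcer1g, an Fc receptor subunit, averaged 0.75, Aif1 0.50 and Tyrobp 0.35.

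Genes of nuclear-encoded mitochondrial respiration were the list with most members higher. Of 67 measured 24 were higher and 0 lower (35.8%, against 7.39% of all genes), the median deviation was 0.30 in the F344 pool and 0.25 in the SD pool, and 36 lay above both other pools in each group. Cox7b, a subunit of cytochrome oxidase, was at 8.0, 7.9 and 9.0 in F344 hyperoxia and at 8.1, 8.2 and 9.1 in SD room air, with 7.3 to 8.0 in the other 4 arrays (average 1.00, SE 0.148, adjusted p = 0.00102). The complex I subunit genes Ndufc2, Ndufa6 and Ndufb9 averaged 0.80, 0.80 and 0.75. Both pools 3 were above the other arrays in these 4 genes, as they were in 1305 of all 14324 genes. The list's mean level was 9.13, 9.09 and 9.42 in F344 hyperoxia and 9.10, 9.27 and 9.40 in SD room air, so SD room-air pool 2 lay between. The count was 20 to 24 when 1 of the other 8 arrays was left out, 19 with 1 lower under median centring, and 6 in the SD pool and 3 in the F344 pool alone.

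Of 68 ribosomal protein genes 19 were higher and 3 lower (27.9% and 4.41%, against 7.39% and 8.73% of all genes, median 0.23). Rps27 lay at 6.9, 7.3 and 8.1 in F344 hyperoxia and at 7.7, 7.6 and 8.4 in SD room air (average 0.88, SE 0.126), Rps26 averaged 0.65 and Rpl19 0.63, while Rplp0 fell by 0.40. The list's mean was 10.79 in SD room-air pool 2 and 10.84 in pool 3, against 10.66 in pool 1, and 10.56, 10.50 and 10.79 in F344 hyperoxia. The higher count was 8 without air-exposed SD pool 1, 10 without F344 hyperoxia pool 2, 1 in either pool 3 alone and 7 with median centring. The lower count was 0 or 1 without F344 hyperoxia pool 2, either pool of hyperoxic SD or air-exposed SD pool 1 or 2. Ribosomal protein genes have many processed copies, and the probes were not checked for them. Of 30 proteasome genes 8 were higher (26.7%), led by the core subunit gene Psma2 at 0.80, and Psmd2 was lower at -0.48.

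Of 29 antioxidant genes 9 were higher and 1 lower (31.0% higher, against 7.39% of all genes). Sod1, the cytosolic superoxide dismutase, lay at 8.6, 8.5 and 9.3 in F344 hyperoxia and at 8.6, 8.7 and 9.5 in SD room air, against 8.3 to 8.6 in the other arrays (average 0.80, SE 0.106, adjusted p = 5.43e-04). Gsta4, a glutathione transferase, averaged 0.90 and the peroxiredoxin gene Prdx1 0.60. In both pools 3 Sod1 and Prdx1 exceeded the other 8 arrays. Txnrd1, thioredoxin reductase, fell by 0.55. The higher count was 8 to 10 when 1 of the other 8 arrays was left out.

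In the glycolysis list, 6 of 20 members were lower and 0 higher by limma (30.0% lower, against 8.73% of all genes, median -0.20), and of 49 targets of hypoxia-inducible factor 7 were lower and 1 higher (14.3% and 2.04%, median -0.10). The lists share 5 of these lower genes. The hypoxia list had a median level of 8.76, and 15.9% of the 2852 genes at 7.54 to 8.78 were lower, near its own share. The glycolysis list had a median level of 10.015, and 18.1% of the 2863 genes from 8.79 up were lower. Hk2, a hexokinase, lay at 7.1, 8.2 and 6.7 in F344 hyperoxia and at 8.1, 8.1 and 7.3 in SD room air, with 7.8 and 7.6 in F344 room air and 6.5 and 6.6 in SD hyperoxia (fell by 0.88, SE 0.209, adjusted p = 0.0143). Both pools 3 were below their own groups, but F344 hyperoxia pools 1 and 2 were themselves apart, and the call was lost without air-exposed SD pool 1 or 2. The glucose transporter gene Slc2a3 fell by 0.63 and Pgk1, phosphoglycerate kinase, by 0.50.

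Bnip3, a receptor for removal of mitochondria, ran the other way, at 9.8, 10.2 and 10.6 in F344 hyperoxia and 10.8, 10.7 and 11.2 in SD room air (average 0.53, adjusted p = 0.0174), a call lost without F344 hyperoxia pool 1 or air-exposed SD pool 1 or 2 and with a term for each pool 3. The mean of the hypoxia list was 8.28, 8.67 and 8.36 in F344 hyperoxia and 8.74, 8.80 and 8.66 in SD room air, so F344 pool 3 lay between the others of its group. The lower count of that list was 13 without F344 hyperoxia pool 1, 2 without pool 2, 4 without either air-exposed F344 pool, 3 without either pool of hyperoxic SD or air-exposed SD pool 1, and 1 without air-exposed SD pool 2. The glycolysis count was 3 without F344 hyperoxia pool 2, either pool of hyperoxic SD or air-exposed SD pool 1, and 2 without air-exposed SD pool 2. With either pool 3 alone, 0 members of either list passed by limma.

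Of 17 genes of cholesterol synthesis 6 were lower (35.3%, against 8.73% of all genes), among them lanosterol synthase Lss at -0.55 and Acat2 at -0.50. Of 34 axon guidance genes 8 were lower (23.5%) and 0 higher by limma, among them the semaphorin receptor gene Plxna2 at -0.53 and Epha3 at -0.45. The median levels of these lists were 8.77 and 7.85. Of the 2852 genes with mean levels of 7.54 to 8.78, 15.9% were lower. The cholesterol count was 2 without F344 hyperoxia pool 2 and 3 without F344 hyperoxia pool 1, either pool of hyperoxic SD or air-exposed SD pool 2. The axon guidance count was 4 without F344 hyperoxia pool 2 and 5 without either pool of hyperoxic SD or air-exposed SD pool 2.

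**Figure D4:**
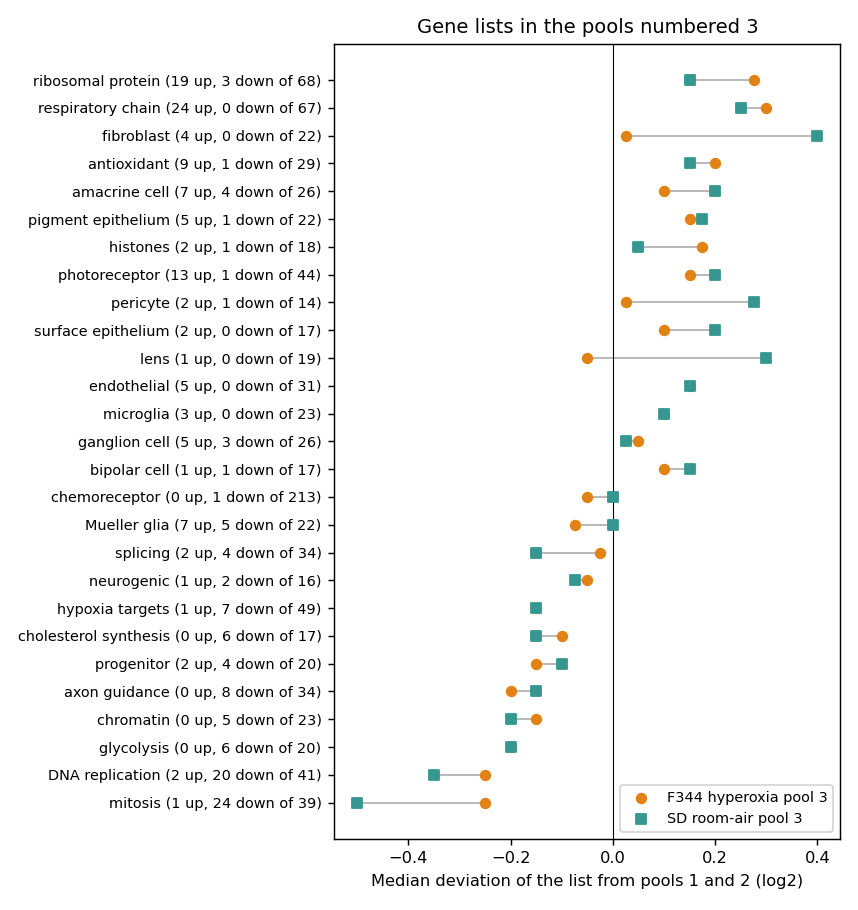
Median deviation (log2) of 27 gene lists in F344 hyperoxia pool 3 (circles) and SD room-air pool 3 (squares), with the numbers of members higher and lower by the average in brackets; where only a square is seen, both medians are equal. Mitosis and DNA replication lie lowest, at -0.50 and -0.35 in the SD pool, respiratory chain genes lie at 0.30 and 0.25, and the pools part most for the fibroblast and lens lists.

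Markers of tissues that adjoin the retina were read in the same arrays. Of 22 pigment epithelium genes 5 were higher and 1 lower by the average (22.7% and 4.55%, against 7.39% and 8.73% of all genes), 1 was higher in the F344 pool alone and 2 in the SD pool alone, and the medians were 0.15 and 0.18. Rgr, an opsin of pigment epithelium and Müller cells, lay at 6.8, 7.0 and 8.0 in F344 hyperoxia and at 6.8, 6.6 and 7.9 in SD room air (average 1.15, SE 0.130), and Ttr, transthyretin, a carrier of thyroid hormone and retinol, at 8.8, 8.9 and 10 and at 8.5, 8.7 and 9.9 (average 1.23, SE 0.139). For both genes the other 4 arrays stayed below pools 3, with SD hyperoxia pool 1 the highest of them at 7.5 and 9.3. Tyr, tyrosinase, lay at 5.9, 5.8 and 6.6 and at 4.7, 5.4 and 6.1, but SD hyperoxia pool 1 was at 6.4, and its adjusted p was 0.0488, a call lost without any pool numbered 1 or 2 but those of SD hyperoxia. The list's mean was 6.11, 6.10 and 6.38 in F344 hyperoxia, 5.96, 6.11 and 6.36 in SD room air, 6.03 and 6.0 in F344 room air and 6.29 and 6.06 in SD hyperoxia. The count was 3 without F344 hyperoxia pool 2, either air-exposed F344 pool or air-exposed SD pool 1. Of 16 ciliary body and iris genes 3 were higher, with Ptgds, prostaglandin D synthase, at 1.10 and Bmp7 at 0.73, and 2 were lower (18.8% and 12.5%). That lower count was 1 without F344 hyperoxia pool 2 or air-exposed SD pool 1 and 0 by limma without air-exposed SD pool 2.

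Lens and connective tissue genes had larger deviations in SD pool 3 than in F344 pool 3, although no gene's difference passed. Cryba1, a lens crystallin, lay at 5.5, 7.1 and 8.8 in SD room air but at 5.5, 8.2 and 6.8 in F344 hyperoxia (deviations 2.50 and -0.05, adjusted p of the average 0.257). Crygd was at 4.7, 6.7 and 7.3 and at 4.8, 7.6 and 5.1 in these groups. F344 hyperoxia pool 2 had more Cryba1 than F344 pool 3 and the highest Crygd of all arrays, so pools 1 and 2 of both groups already differed. Of 19 lens genes 1 passed (5.26%, against 7.39% of all genes), and 3 passed without F344 hyperoxia pool 2. The 1 was Cryab, a small heat shock protein, at 5.4 and 6.8 in F344 and SD pools 3 against 4.7 to 5.2 elsewhere. Its average was 1.15 (limma adjusted p = 0.00808), a call lost without air-exposed SD pool 2. The lens list's mean was 5.32, 5.52 and 6.0 in SD room air, 5.28, 5.81 and 5.43 in F344 hyperoxia and 5.35 to 5.54 in the other 4 arrays.

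Of 22 fibroblast genes 10 were at least 0.5 higher in SD pool 3 and 2 in F344 pool 3. Of all genes, 8.43% and 7.23% were that far away in these pools, counted in either direction. Postn, periostin, lay at 4.4, 4.7 and 6.6 in SD room air and at 4.8, 5.1 and 5.0 in F344 hyperoxia (deviations 2.05 and 0.05), and Col1a1, a collagen chain, at 7.2, 7.1 and 8.2 and at 7.1, 7.2 and 6.7 (1.05 and -0.45). Col1a2, Col3a1, Dpt and Mfap5, all of extracellular matrix, had the same pattern, as did the keratin gene Krt4. These 7 were among the 10 genes with the smallest p for the difference of the deviations, all with an adjusted p of 0.958. By the average, Dcn, Postn, Lum and Col3a1 passed higher (1.08, 1.05, 0.93 and 0.65), although Postn and Col3a1 each deviated by only 0.05 in the F344 pool. These 4 are 18.2% of the list, against 7.39% of all genes. That count was 0 without F344 hyperoxia pool 1 or air-exposed SD pool 1, 1 without air-exposed SD pool 2 and 2 without any other of the 8 arrays. With 1 pool 3 taken singly, 6 members passed higher in the SD pool and 0 in the F344 pool by limma. The fibroblast list's mean was 6.31 in SD pool 3 and 5.62 to 5.89 in the other 9 arrays.

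**Figure D5:**
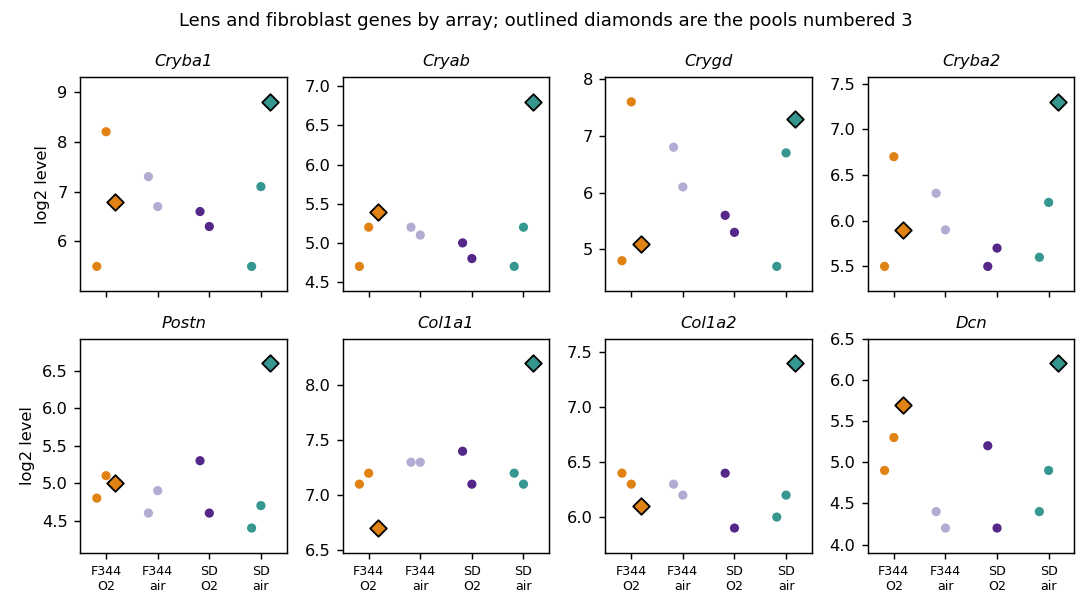
Log2 level of 4 lens genes (top) and 4 fibroblast genes (bottom) in all 10 arrays by group, with hyperoxia written O2, circles for pools 1 and 2 and outlined diamonds for pools 3; the y axes differ between panels and do not start at 0. SD room-air pool 3 is the highest array in every panel but Crygd, where F344 hyperoxia pool 2 is at 7.6, and F344 pool 3 lies within its group for Cryba1, Crygd, Cryba2 and Postn.

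Of 17 surface epithelium genes 2 were higher, Krt15 at 0.65 and Krt13 at 0.35 (11.8%, against 7.39% of all genes), and the list's mean was 5.37 in SD pool 3 and 5.02 to 5.10 elsewhere. That count was 1 without either air-exposed F344 pool, either pool of hyperoxic SD or air-exposed SD pool 1 or 2, and with quantile normalization, median centring or the replicate block. Of 36 skeletal muscle genes 2 were higher (5.56%), a count that was 1 when any pool 1 or 2 but those of air-exposed F344 was left out. Of 15 erythroid genes 1 was higher (6.67%), the globin gene Hbb at 0.68, and of 19 lymphocyte and granulocyte genes 1 (5.26%), Ngp at 0.38. Neither call held without either pool of hyperoxic SD or air-exposed SD pool 1 or 2, nor did Hbb without F344 hyperoxia pool 1 or Ngp without F344 hyperoxia pool 2. The part of the pigment epithelium, lens, fibroblast and surface epithelium genes in the other deviations was not tested.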

How the data were processed

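Levels are the authors' deposited log2 values, 1 per probe set, with 1 decimal and a range of 3.1 to 14. Per the submitters' processing notes, RMA and Partek 6.4 were used, with roles not stated, and the scaling and annotation steps are not given. Rounding adds error of its own to small differences, and the number of arrays limits precision. Array medians lay between 5.9 and 6. GEO's platform annotation pairs 15097 of the 27342 probe sets with a single symbol, 323 with several and 11922 with none; 15067 were updated through a GRCr8 gene table. A gene was counted by its brightest probe set (14324 genes).

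Tests used R 4.3.3 and limma 3.58.1 (lmFit, eBayes, two-sided) on all 10 arrays, and p-values were adjusted by Benjamini-Hochberg across the whole table (threshold 0.05). The average came from a mean per group and 1 term for pools 3 (5 residual degrees of freedom), and the single deviations and their difference from a term per pool 3 (4 residual degrees of freedom). The procedure was tested on simulated data. Pools are of different rats, so the spread is between pools.

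Named genes are the 12 largest rises and 12 largest falls that passed with both pools 3 outside their groups, the 3 largest each way in each pool, the 10 with the smallest p for the difference, and up to 4 passing members of each list by size (2 where none passed). Other list members named, and Crx, Rax, Nrl, Cryba1 and Crygd, were picked with their values in view (chosen after seeing them). The members and the 44 lists were chosen with earlier results of these data known. Some lists share members. Alternatives were the brighter probe sets, trend and robust eBayes, quantile normalization, median centring, other ways to count a gene, only the 2 groups, a replicate block, a threshold of 0.1 and each array left out.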

Additional observations from a re-analysis of the deposited data

How the results depend on the processing

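Genes higher and lower by the average of both deviations kept within 1.5 times of 1058 and 1251 with the brighter probe sets, trend and robust eBayes, quantile normalization, either other way to count a gene, a term per pool 3, both pools 3 outside their groups and a threshold of 0.1. Median centring gave 639 higher, and only the 2 groups gave 526 higher and 510 lower. All 639 and 510, and 524 of the 526, were among the main calls. With 1 array left out, the range was 139 to 941 higher and 63 to 1179 lower; the lowest values are those without a pool 3. Pool numbers paired the groups weakly at most (pool 1 minus pool 2 correlated between groups at -0.0614 to 0.145). The highest value, 0.145, was between F344 hyperoxia and SD room air, the 2 groups with a pool 3, and the next was 0.0408. The replicate block gave 997 higher and 1171 lower. Among named genes 567 of the repeated values lost their call, 14 gained one, 2517 stayed on the same side of the threshold and 0 reversed. Of the repeated list medians 119 moved by more than the spread and 711 did not. Many of these could not move, nor could a gene reverse, because the deviations stayed the same values. That holds for trend and robust eBayes, 1 probe set per gene, only the 2 groups, the replicate block and a term per pool 3. It also holds where a pool of air-exposed F344 or hyperoxic SD was left out. Median centring moved 34 of the 44 list medians.

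Counts of a single pool 3 moved most, in the order F344 higher, F344 lower, SD higher and SD lower. They were 468, 410, 359 and 599 with the brighter probe sets, 619, 485, 522 and 748 with trend and robust eBayes, 286, 174, 300 and 283 with quantile normalization, 307, 181, 295 and 368 with probe sets averaged per gene, 296, 178, 284 and 343 with 1 probe set per gene, 143, 272, 181 and 333 with median centring, 506, 393, 489 and 640 at a threshold of 0.1, and 0 each with only the 2 groups. With 1 array left out they ran from 0 to 139, 0 to 63, 0 to 191 and 0 to 211. These fits have fewer arrays, or another variance prior or set of probe sets; the cause was not tested further. The test of the difference called 0 genes under every alternative run. The correlation was 0.757 with the brighter probe sets and 0.598 to 0.657 with 1 array left out. The same-sign share was 80.6% with the brighter probe sets, 68.4% with quantile normalization and 70.3% to 74.4% with 1 array left out. Signal over background was not analysed here, and dim probe sets agreed less.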

Other observations

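Several other gene groups were read in pools 3. Of 34 splicing genes 4 were lower and 2 higher by limma (11.8% and 5.88%, against 8.73% and 7.39% of all genes): the spliceosome subunit genes Sf3b3 and Snrpb stood at -0.70 and -0.58, and the small ribonucleoprotein genes Snrpf and Snrpd1 at 0.93 and 0.78. Of 23 chromatin regulator genes 5 were lower and 0 higher (21.7% lower). Among them were the histone methyltransferase gene Nsd1 and the demethylase gene Kdm5b, both at -0.45, and Ctcf at -0.33. The lower count was 3 without F344 hyperoxia pool 2. The median level of this list was 10.24, and of the 2863 brightest genes, from 8.79 up, 18.1% were lower, near the share of the list. Of 22 genes of the unfolded protein response 6 were higher and 1 lower (27.3% and 4.55%), with the stress factor Ddit3 and the chaperone partner Dnajb9 both at 0.48. The median was 0.05 and turned to -0.03 with median centring. The higher count was 2 without F344 hyperoxia pool 2. Of 24 immediate early genes 4 were higher (16.7%): Egr1 at 0.60, Zfp36 at 0.53, Ccn1 at 0.50 and Fos at 0.43. In the F344 and SD pools Egr1 deviated by 0.30 and 0.90, Zfp36 by 0.25 and 0.80, Ccn1 by 0.35 and 0.65 and Fos by 0.40 and 0.45. Taken singly, 3 members passed higher in the SD pool and 0 in the F344 pool by limma. Of 21 interferon genes 3 were higher and 1 lower (14.3% and 4.76%). B2m, the light chain of class I molecules, lay at 7.6, 7.8 and 8.8 in F344 hyperoxia and 8.1, 8.3 and 9.2 in SD room air (average 1.05, SE 0.096, adjusted p = 4.95e-05), above all other arrays in both pools 3. The lower member was Mx2, an interferon-induced gene, at -0.33. That lower count was 0 or 1 when 1 of the other 8 arrays was left out.

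Of 14 clock genes Bhlhe41 was higher at 0.85, and of 13 p53 targets Plk2 was higher at 0.60 (7.14% and 7.69%, against 7.39% of all genes); the Bhlhe41 call was lost without air-exposed SD pool 1. Of 14 heat shock genes Hspe1, at 0.55, and Cryab were higher (14.3%, against 7.39% of all genes). That count was 1 without F344 hyperoxia pool 1 or 2, either pool of hyperoxic SD or air-exposed SD pool 1, and 0 by limma without air-exposed SD pool 2. Hspa8, at -0.28, was lower in that list, a call lost without any 1 of the other arrays, with quantile normalization and with the replicate block. Of 33 ion channel genes 4 were higher and 3 lower (12.1% and 9.09%), with the potassium channel gene Kcnc1 at 0.48 and the sodium channel gene Scn8a at -0.63; the lower count was 1 without F344 hyperoxia pool 2. Of 40 transmitter receptor genes 3 were higher and 3 lower (7.5% each, near the 7.39% and 8.73% of all genes). The higher count there was 1 without F344 hyperoxia pool 2, either pool of hyperoxic SD or air-exposed SD pool 1. The lower count was 1 without air-exposed SD pool 1. Of 213 chemoreceptor genes, which retina is not known to express widely, 0 were higher and 1 was lower by limma, the latter lost without F344 hyperoxia pool 1 or 2 or air-exposed SD pool 1 or 2. Chosen after their values were seen, 3 further genes of peptide and dopamine signalling were higher in both pools 3: Tac1 (6.3, 6.5 and 7.5 in F344 hyperoxia, 6.4, 6.3 and 7.4 in SD room air, average 1.08), Sst (average 0.93) and the dopamine receptor gene Drd2 (average 0.90).

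The calls rose with brightness. Of the 2881 dimmest genes, with mean levels of 3.61 to 4.75, 0.59% were higher and 0.208% lower. Of the 2863 brightest, from 8.79 up, 11.2% were higher and 18.1% lower. The shares of all genes set beside the lists are not matched for brightness. By median level the chromatin and splicing lists stood at 10.24 and 10.52, and the endothelial and fibroblast lists at 5.14 and 5.42. Of the 2856 genes with mean levels of 4.76 to 5.72, 3.82% were higher and 0.7% lower.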
